A study of Rattus norvegicus with 60 samples.

Results

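The proteins that a cell secretes or places in its membranes enter the endoplasmic reticulum (ER), fold there and are inspected before they move on. The genes described here encode that route: the signal recognition particle, the translocon, the signal peptidase, the lumenal chaperones, the disulfide isomerases and the degradation machinery, together with the transcription factor Xbp1. They were chosen by name, as the genes whose symbol in the platform annotation equals an entry of a fixed list, with several probe sets combined by their mean. Of 36 listed genes 33 had a probe set with that single symbol, among 14324 genes in all. Edem1, Spcs2 and Srpr had none under these names.

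RNA came from the spinal cord of 60 female Long Evans rats, 8 or 9 weeks old, each hybridized to its own Rat Gene 1.0 ST array. Injured rats had a contusion of the thoracic cord made by a falling weight (SCI), and sham rats (S) had none. Each rat received methylprednisolone (MP), a synthetic glucocorticoid, at 30 mg/kg, or its vehicle of 70% ethanol (EtOH), and the groups are called SCI-EtOH and SCI-MP where injured and S-EtOH and S-MP where not. Of each group 2 rats were killed at 2 h, 4 h, 6 h, 8 h and 12 h and at 24 h and 48 h after medication, and 2 rats each of S-EtOH and SCI-EtOH at 0 h. S-EtOH and SCI-EtOH thus hold 16 arrays each, S-MP and SCI-MP 14. All rats, sham rats included, were anaesthetized with Zoletil 50 and Rompun, and the MP groups received the ethanol vehicle too. The sample was a 5 mm piece of cord at the lesion, so every value is a mean over all its cells, in which fewer cells of a type and less RNA per cell cannot be told apart.

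Signal recognition particle binds the signal sequence of a nascent protein and brings the ribosome to the Sec61 channel, which the translocon-associated protein (TRAP) complex accompanies, and signal peptidase then removes the signal. Inside, Hspa5 (BiP), Hsp90b1 (GRP94) and the lectins Canx and Calr hold unfolded chains while isomerases form disulfide bonds, and chains that fail are returned to the cytosol through Syvn1 and Sel1l and destroyed. When unfolded protein accumulates, sensors in the ER membrane respond, Atf6 among them, and Xbp1 is activated. Atf6 and Xbp1 raise the transcription of chaperones, a programme known as the unfolded protein response. The values of Xbp1 here give its RNA level, not whether the protein was active.

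The deposited values are log2 values centred near 0 for each gene, on a reference that the sources used here do not give. They therefore show differences between arrays, not how abundant a transcript is, and neither the presence of a gene nor of a cell type could be checked from them. Array medians lay between -0.03 and 0.11, and no 2 arrays were identical. For the 33 genes the median SD within a pair of rats was 0.22 in SCI-EtOH, 0.18 in SCI-MP and S-MP and 0.12 in S-EtOH. The spread of all values on an array also differed: their SD was 0.17 to 0.19 in S-EtOH at 24 and 48 h and 0.48 to 0.52 in SCI-EtOH at these times. Apart from the class calls and the plain test of the study's methods, every test below is a limma contrast on the log2 scale with an SE. It was adjusted by Benjamini-Hochberg over all 14324 genes and called at an adjusted p under 0.05. With 2 rats per group and time, p-values rest on the spread within such pairs pooled over all groups.

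In the injured cord most genes of this route rose late. Between the mean of 2, 4 and 6 h and the mean of 24 and 48 h, 26 of the 33 genes rose in SCI-EtOH and none fell, where 28.3% of all genes rose and 25.3% fell (53.6% together). In SCI-MP 27 of 33 rose and none fell, where 28.1% of all genes rose and 16% fell (44.2% together). The median late change of the 33 genes was 0.63 in SCI-EtOH and 0.55 in SCI-MP, and that of all genes in SCI-EtOH was -0.03. With quantile normalization 22 and 19 genes rose, where 33% and 30.8% of all genes changed in either direction.

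**Figure D1:**
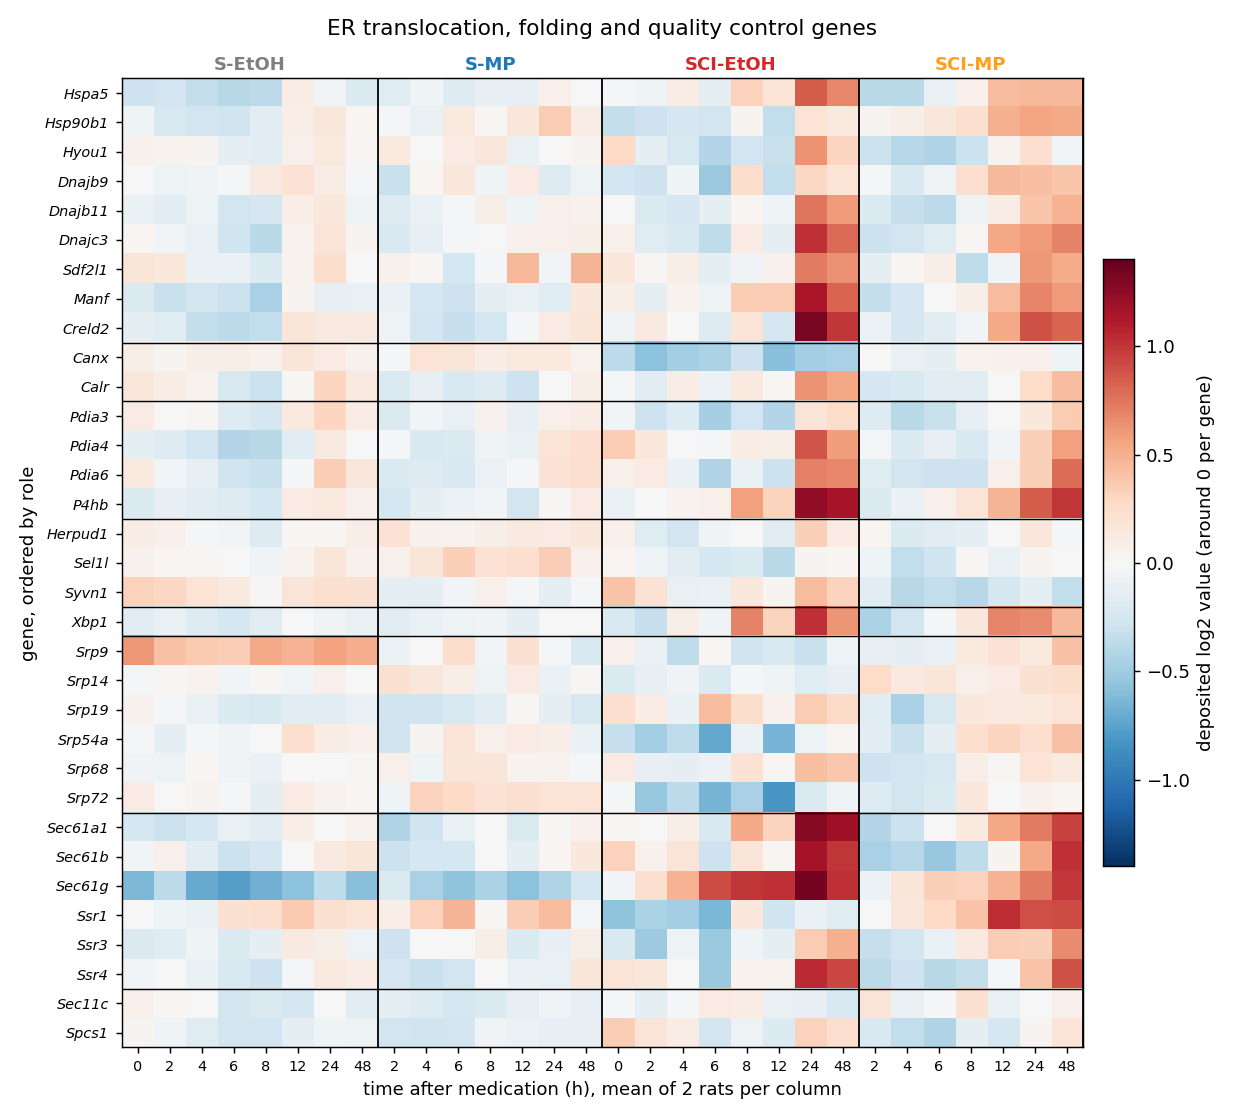
Mean log2 value of 2 rats for each of the 33 genes (rows, ordered by role) in each group and time after medication (columns, in h). Colour gives the log2 value relative to the centre of the deposited values, and the columns of 24 and 48 h in both injured groups hold most of the high values, with Sec61a1 and P4hb among them.

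The median late change in SCI-EtOH was 0.94 in the translocon and 0.79 among the lumenal chaperones. Sec61a1, the pore-forming subunit of the channel, had the largest of the 33 genes. The gene (chr4:122530785-122545141 in the rat assembly GRCr8) stood at -0.46, -0.02 and 0.27 (lowest, median and highest of 6 arrays) early in SCI-EtOH. At 24 h it read 1.42 and 1.14 and at 48 h 1.23 and 1.14. All 4 late arrays lay above all 6 early ones, and the late change was 1.27 ± 0.11 (SE; limma adjusted p = 2.46e-11). In SCI-MP the late arrays read 1.04, 0.40, 0.85 and 1.03 against -0.43, -0.30 and 0.07 early, a change of 1.07 ± 0.11 (limma adjusted p = 2.03e-09). In S-EtOH the same 4 late arrays read -0.09, 0.11, 0.01 and 0.08. The sham rats thus stayed within the range in which the injured rats began.

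P4hb, the archetypal protein disulfide isomerase and also a subunit of collagen prolyl hydroxylase (chr10:106335300-106346911), rose late in both injured groups. In SCI-EtOH its early arrays read -0.04, 0.03 and 0.14 (lowest, median, highest), and its late arrays 1.21 and 1.27 at 24 h and 1.27 and 1.04 at 48 h. The change was 1.16 ± 0.09 (limma adjusted p = 2.75e-12) and the groups of arrays did not overlap. At 8 h the rats of SCI-EtOH stood between, at 0.85 and 0.31. In SCI-MP the late values were 1.06, 0.64, 1.09 and 0.92 and the change 1.0 ± 0.09 (limma adjusted p = 1.45e-10).

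Hspa5, the central chaperone of the lumen, read -0.27, 0.02 and 0.16 early in SCI-EtOH and 0.92, 0.78, 0.82 and 0.51 late (0.79 ± 0.10, limma adjusted p = 2.09e-08). In SCI-MP it read -0.43, -0.34 and -0.10 early and 0.68, 0.26, 0.36 and 0.55 late (0.75 ± 0.10, limma adjusted p = 1.05e-07). Early and late arrays did not overlap in either injured group, and the 4 late S-EtOH arrays, at -0.05, -0.03, -0.22 and -0.16, lay below every late injured array. How many of all genes had early and late arrays apart, as Sec61a1, P4hb and Hspa5 did, was not counted. Xbp1, which drives many genes of this route, read 1.03, 1.01, 0.57 and 0.66 late in SCI-EtOH, a change of 0.91 ± 0.09 (limma adjusted p = 1.53e-10), and changed by 0.80 ± 0.09 in SCI-MP. At 8 h Xbp1 already stood at 0.88 and 0.52 in SCI-EtOH.

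Creld2, a stress-induced lumenal protein, varied more between rats of a pair. Its late values in SCI-EtOH were 1.39, 1.27, 1.6 and 0.40 and in SCI-MP 1.45, 0.33, 0.30 and 1.32, against -0.33, -0.01 and 0.27 early in SCI-EtOH. The late change was 1.18 ± 0.18 in SCI-EtOH (limma adjusted p = 9.52e-07) and 1.0 ± 0.18 in SCI-MP (limma adjusted p = 1.69e-05). Dnajc3, an Hspa5 co-chaperone that also inhibits the kinase Eif2ak3, read 1.17, 0.88, 0.95 and 0.64 late in SCI-EtOH and 1.05, 0.15, 0.49 and 0.90 in SCI-MP. The second SCI-MP rat at 24 h was the lowest of its 4 late arrays for Dnajc3, P4hb, Sec61a1, Hspa5 and Sec61b, whose value there was -0.11 against 0.81 to 1.24 in the other late rats.

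**Figure D2:**
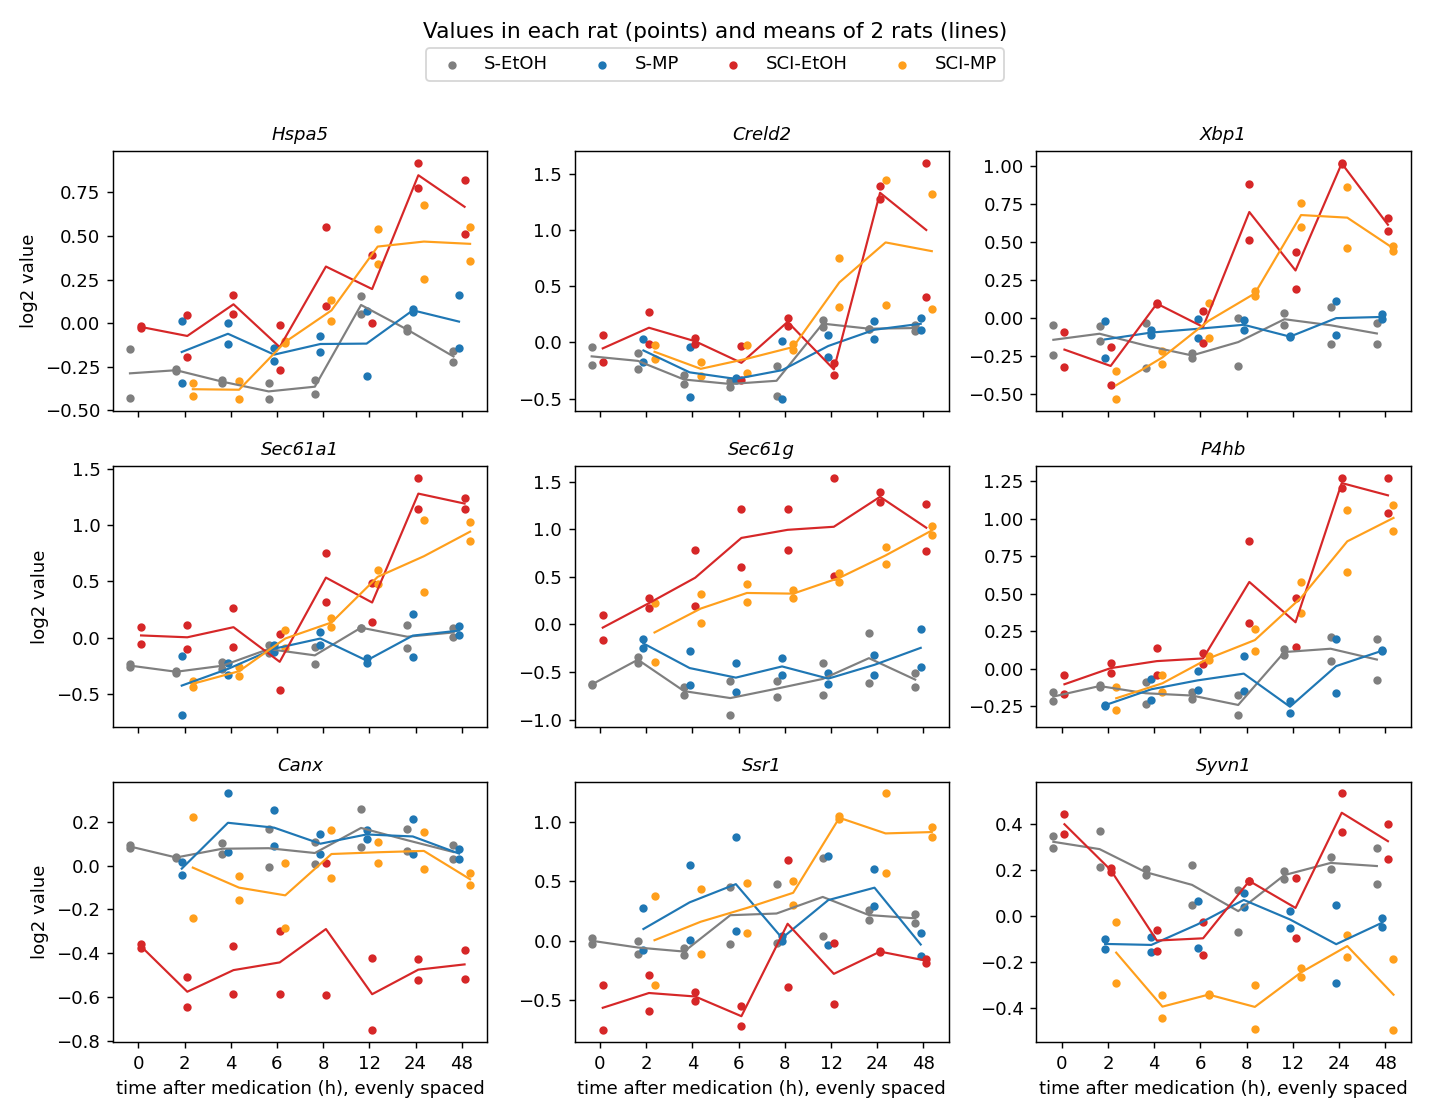
Log2 values of 9 genes over time after medication (h, times evenly spaced) in the 4 groups. Points are single rats and lines join the means of 2 rats, and Hspa5, Creld2, Xbp1, Sec61a1 and P4hb rise at 24 and 48 h in both injured groups while the mean of Canx in SCI-EtOH lies below that in S-EtOH at every time.

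Chaperone genes of this route are known to carry short elements before their start through which Atf6 and Xbp1 act. The stretch from 250 bases before to 50 after the start listed by RefSeq (assembly GRCr8) was searched on both strands in 33469 promoters of 27457 genes, 29 of the 33 genes among them, for 3 forms. These were the ER stress element (CCAAT, 9 bases of any kind, CCACG), its second form (ATTGG, 1 base, CCACG) and an XBP1 element (TGACG followed directly by TGG). The 250 bases before the start of 6 promoters are shown, because 5 belong to chaperones or to Xbp1 that rose late. Hspa5, Creld2, Dnajc3 and Xbp1 carry the stress element, and Hyou1 the second form and the XBP1 element. The last, Canx, carries the stress element and did not pass the test (0.04 ± 0.09, limma adjusted p = 0.765). Each promoter shown is written 5′ to 3′ on the strand of the gene, and capitals mark the matches, which for Creld2 and for some of Hyou1 lie on the opposite strand. They lie at chr3:38452766-38453015 (Hspa5), chr7:121789134-121789383 (Creld2), chr15:102432417-102432666 (Dnajc3), chr14:84604373-84604622 (Xbp1), chr8:53602632-53602881 (Hyou1) and chr10:35157858-35158107 (Canx, minus strand; the others plus).
Hspa5: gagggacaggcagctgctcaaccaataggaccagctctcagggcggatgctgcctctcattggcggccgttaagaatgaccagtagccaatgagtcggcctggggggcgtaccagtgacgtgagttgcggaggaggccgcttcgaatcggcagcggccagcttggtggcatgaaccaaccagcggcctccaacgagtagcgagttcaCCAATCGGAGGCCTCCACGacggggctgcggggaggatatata
Creld2: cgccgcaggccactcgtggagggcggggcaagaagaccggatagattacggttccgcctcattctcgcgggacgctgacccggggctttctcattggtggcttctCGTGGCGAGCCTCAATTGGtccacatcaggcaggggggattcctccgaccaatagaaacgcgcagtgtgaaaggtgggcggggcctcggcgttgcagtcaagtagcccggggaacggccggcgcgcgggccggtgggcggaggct
Dnajc3: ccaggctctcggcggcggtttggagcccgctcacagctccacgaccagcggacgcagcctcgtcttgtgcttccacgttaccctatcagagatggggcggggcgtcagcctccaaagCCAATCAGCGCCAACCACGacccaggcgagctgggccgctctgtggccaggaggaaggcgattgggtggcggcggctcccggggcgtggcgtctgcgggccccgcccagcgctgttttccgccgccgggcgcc
Xbp1: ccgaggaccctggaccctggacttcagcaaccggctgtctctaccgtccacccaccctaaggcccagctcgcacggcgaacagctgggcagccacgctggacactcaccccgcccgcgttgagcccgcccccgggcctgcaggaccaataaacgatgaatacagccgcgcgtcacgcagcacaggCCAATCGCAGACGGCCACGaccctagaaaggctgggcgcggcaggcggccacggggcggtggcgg
Hyou1: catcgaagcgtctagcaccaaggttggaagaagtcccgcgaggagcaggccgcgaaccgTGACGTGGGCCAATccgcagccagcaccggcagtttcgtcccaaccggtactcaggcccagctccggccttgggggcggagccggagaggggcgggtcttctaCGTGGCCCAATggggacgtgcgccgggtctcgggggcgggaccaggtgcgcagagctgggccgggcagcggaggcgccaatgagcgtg
Canx: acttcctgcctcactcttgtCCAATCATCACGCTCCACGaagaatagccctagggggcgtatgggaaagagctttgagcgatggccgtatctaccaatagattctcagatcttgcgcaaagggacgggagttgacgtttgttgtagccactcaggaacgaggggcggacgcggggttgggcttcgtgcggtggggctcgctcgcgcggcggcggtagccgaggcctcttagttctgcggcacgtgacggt

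The stress element was present in 22 of the 33469 promoters (0.0657%), and 7 of the 29 genes of this route held it: Calr, Canx, Creld2, Dnajc3, Hsp90b1, Hspa5 and Xbp1. Of these 7, all but Canx rose late in SCI-EtOH, by 0.42 to 1.18, where 26 of all 33 genes rose. P4hb, Sec61b and Ssr4, which had no match to any of the 3 forms, rose as well. A link between an element and the late rise was not tested. The second form was in 17 promoters (0.0508%) and in those of Dnajb11, Herpud1 and Hyou1, which rose by 0.86, 0.38 and 0.72. In Dnajb11 the match crossed the start, from position -10 to 1. The XBP1 element was in 199 promoters (0.595%) and in those of Hyou1 and Srp19, and in Hyou1 it overlapped the second form. A match describes these letters and is not a measured binding site. Sec61a1, Manf, Pdia3 and Pdia6 had no entry in the promoter table.

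By role, all 9 lumenal chaperones and co-chaperones rose late in SCI-EtOH, with a median of 0.79 and a range from 0.42 for Hsp90b1 to 1.18 for Creld2. All 4 disulfide isomerases rose, Pdia3 by 0.53, Pdia4 by 0.69, Pdia6 by 0.82 and P4hb by 1.16. Of the lectins Calr rose by 0.63 and Canx did not pass. In the translocon 5 of 6 rose: Sec61a1, Sec61b (1.10), Sec61g (0.64) and the TRAP subunits Ssr3 (0.79) and Ssr4 (1.11). Ssr1, a TRAP subunit too, reached 0.39 ± 0.19 (limma adjusted p = 0.0926) in SCI-EtOH and 0.77 ± 0.19 (limma adjusted p = 0.00148) in SCI-MP.

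The signal recognition particle moved in part. Srp54a, the GTPase that binds the signal sequence, rose by 0.49, and Srp68 and Srp72, which form a pair on the particle, by 0.50 and 0.38. Srp9 and Srp14, which pause elongation, read -0.06 and -0.02 and did not pass, nor did Srp19 (0.16). In SCI-MP Srp19 rose by 0.44 and Srp9 read 0.39 (limma adjusted p = 0.0516). Among degradation genes the ubiquitin ligase Syvn1 rose by 0.39 in SCI-EtOH and read 0.06 in SCI-MP (limma adjusted p = 0.515), Herpud1 rose by 0.38 and read 0.18 in SCI-MP (limma adjusted p = 0.114), and Sel1l read 0.19 in SCI-EtOH (limma adjusted p = 0.0691) and rose by 0.24 in SCI-MP. Spcs1, a signal peptidase subunit, rose by 0.27 in SCI-EtOH and 0.44 in SCI-MP, and its catalytic partner Sec11c passed in neither (-0.16 and 0.02).

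**Figure D3:**
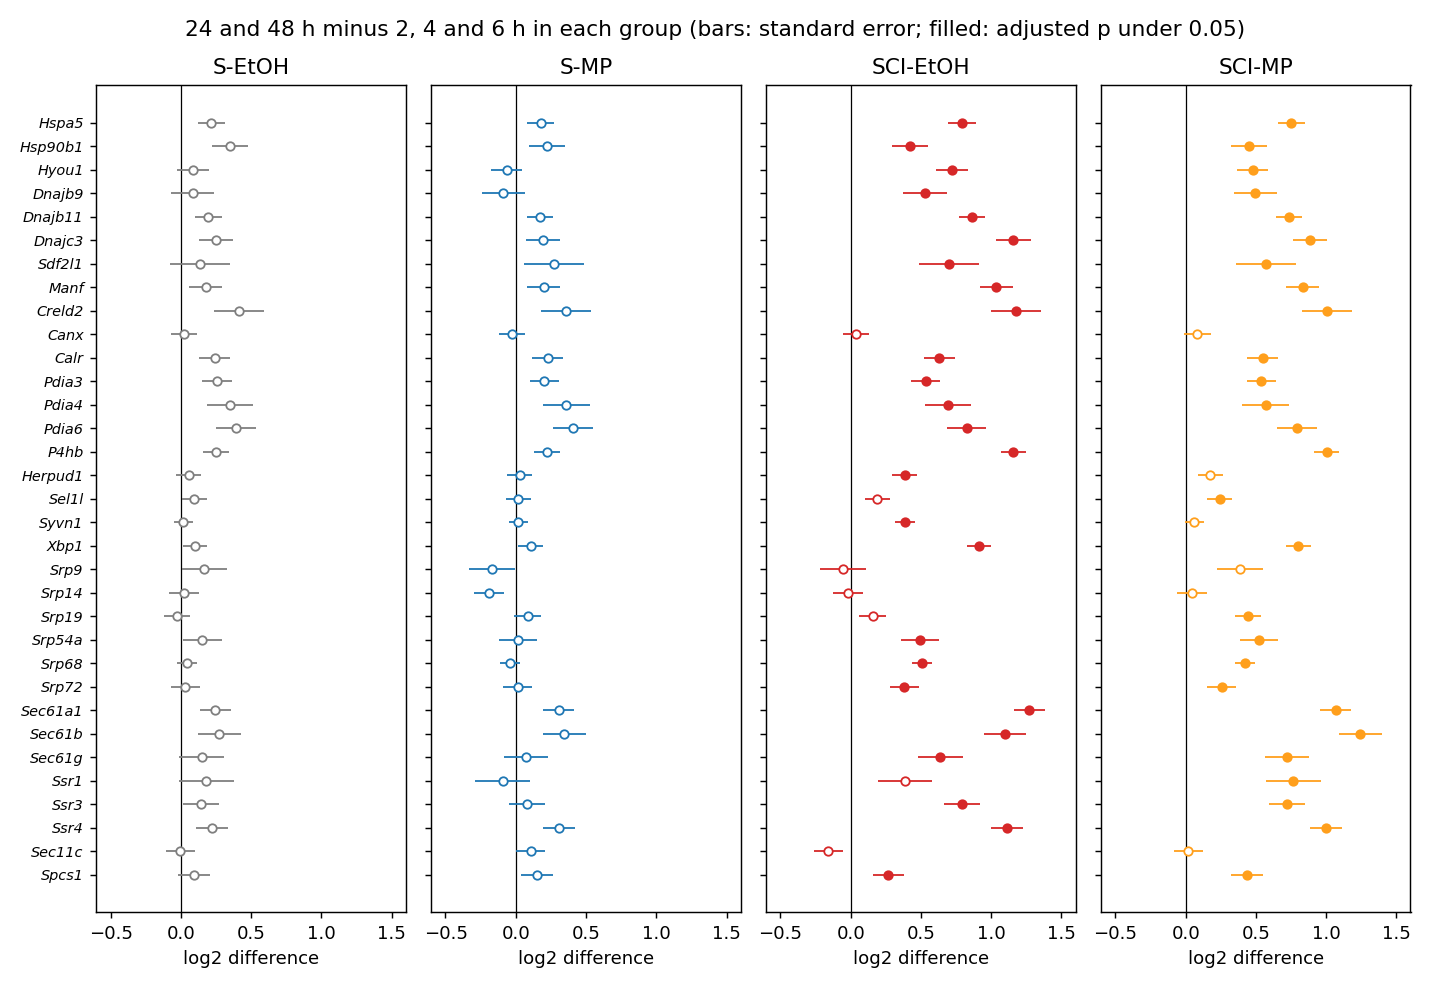
Late minus early log2 difference (mean of 24 and 48 h minus mean of 2, 4 and 6 h, ± SE) of each of the 33 genes in the 4 groups. Filled symbols passed an adjusted p of 0.05, which 26 genes did in SCI-EtOH, 27 in SCI-MP and 0 in either sham group.

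In the sham groups 0 of 33 genes passed in limma, in S-EtOH against 0.901% of all genes and in S-MP against 3.04%. Without adjustment 11 genes of S-EtOH and 8 of S-MP had a p under 0.05, and 31 and 26 of the 33 values lay above 0, with medians of 0.15 and 0.11. The sham counts depended on scaling and weights. Quantile normalization called 11 genes higher in the vehicle group and 8 in the treated one. It called 15.9% and 15.7% of all genes there, in either direction. Array weights called 13 and 3, without a share over all genes to set beside them. In S-MP 1 gene passed without the second S-MP rat at 2 h, or without the first or the second SCI-EtOH rat at 48 h. The late change was therefore compared between injured and sham rats, in a contrast chosen after the data were seen. The late change in SCI-EtOH exceeded that in S-EtOH for 15 of 33 genes and was smaller for none, where 16.7% of all genes exceeded it, and for 30 genes the difference was above 0. It was 1.03 ± 0.16 for Sec61a1 (limma adjusted p = 4.88e-06), 0.91 ± 0.13 for P4hb (limma adjusted p = 1.37e-06), 0.81 ± 0.12 for Xbp1 (limma adjusted p = 4.77e-06) and 0.57 ± 0.14 for Hspa5 (limma adjusted p = 0.0013). Between SCI-MP and S-MP 16 of 33 exceeded and none was smaller, where 15.9% of all genes exceeded.

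With quantile normalization, which gives every array the same spread of values, the difference in late change was called for 0 of 33 genes in SCI-EtOH against S-EtOH (9 without adjustment) and for 3 in SCI-MP against S-MP. The median difference of the 33 genes was then 0.18 in place of 0.43 and 0.26 in place of 0.50, and 26 and 28 of the values lay above 0. Among all genes 12.6% and 12.4% were then called, in place of 31.4% and 24.8%. With array medians set to 0, which leaves the spread alone, 15 and 14 genes were called. The late rise within the injured groups was called under each scaling.

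The late values in SCI-EtOH were also set against 0 h, in a contrast that was not planned. It was not made in S-EtOH, so it does not tell injury from time. Against 0 h, the mean of 24 and 48 h in SCI-EtOH was higher for 17 of 33 genes and lower for none, where 18.2% of all genes were higher, with P4hb at 1.30, Creld2 at 1.22, Sec61a1 and Sec61g at 1.21 and Xbp1 at 1.03. By role, 7 of 9 lumenal chaperones, 5 of 6 translocon genes, 2 of 4 disulfide isomerases, 1 of 2 lectins and Xbp1 were higher. Of the signal recognition particle 1 of 6 was. Of 3 degradation genes (median 0.01) and 2 signal peptidase genes (both below 0), 0 passed. For these last roles the late rise was one from the level at 2 to 6 h. A difference in late change between SCI-MP and SCI-EtOH passed for 0 of 33 genes in limma, where 0.559% of all genes passed. At an unadjusted p under 0.05 there were 2, Syvn1 at -0.32 and Srp19 at 0.29.

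Cell type markers moved over the same interval. Of 8 neuronal markers 7 fell late in each injured group, and their mean per array went from -1.43 to -0.33 early to -2.53 to -1.75 late in SCI-EtOH. All 5 oligodendrocyte markers fell in both injured groups. Of 5 monocyte and macrophage markers 4 rose in SCI-EtOH and 3 in SCI-MP, with means of -0.17 to 0.69 early and 0.99 to 1.69 late in SCI-EtOH. Of 6 neutrophil markers 6 rose in SCI-EtOH and 5 in SCI-MP, with means of -0.02 to 1.04 early and 1.15 to 2.52 late in SCI-EtOH. Astrocyte markers fell for 4 and 5 of 5, microglial ones for 2 and 4 of 6, erythrocyte ones for 3 and 2 of 4, and plasma and B cell ones for 2 and 1 of 3. Fibroblast and meningeal markers rose for 3 of 6 in both, and of 4 endothelial markers 1 rose and 1 fell. The part of these shifts in the late rise was not tested.

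Over the mean of the 7 times after medication, SCI-EtOH differed from S-EtOH for 23 of the 33 genes, 16 higher and 7 lower, where 62.7% of all genes differed (35.1% higher and 27.5% lower). The share of these genes was thus close to that of all genes. Over the same arrays 8 of 8 neuronal markers were lower (median -1.62) and 5 of 5 astrocyte markers (-0.66), while 6 of 6 neutrophil (1.49), 4 of 4 erythrocyte (1.35), 5 of 5 monocyte and macrophage (0.78) and 4 of 4 endothelial markers (0.54) were higher. Their part in these differences was not tested. Higher were Sec61g, Manf, Sec61a1, P4hb, Hspa5, Xbp1, Pdia4, Creld2 and 8 more with differences of 0.12 to 0.38. Lower were Srp9, Canx, Srp72, Ssr1, Srp54a, Pdia3 (-0.19) and Sel1l (-0.18).

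Sec61g, the small gamma subunit of the channel (chr14:95113083-95119458), differed most. It read -0.95, -0.61 and -0.09 in S-EtOH (lowest, median and highest of 14 arrays) and 0.18, 0.78 and 1.54 in SCI-EtOH, a difference of 1.43 ± 0.09 (limma adjusted p = 3.48e-15). It was the only one of the 33 genes whose SCI-EtOH and S-EtOH arrays did not overlap, which held for 1.08% of all genes upward and 3.55% downward. S-MP read -0.71, -0.43 and -0.04 and SCI-MP -0.40, 0.40 and 1.04, so that the SCI-MP arrays overlapped both sham groups. Manf, a stress-induced protein that binds Hspa5 and can be secreted, read -0.50, -0.22 and 0.06 in S-EtOH and -0.30, 0.22 and 1.16 in SCI-EtOH (0.58 ± 0.07, limma adjusted p = 7.47e-09). Pdia4 read -0.52, -0.21 and 0.23 in S-EtOH and -0.12, 0.10 and 1.14 in SCI-EtOH (0.44 ± 0.10, limma adjusted p = 0.000236). Hspa5 read -0.44, -0.27 and 0.16 in S-EtOH and -0.27, 0.13 and 0.92 in SCI-EtOH (0.49 ± 0.06). Sec61a1 differed by 0.55 ± 0.06 and P4hb by 0.54 ± 0.05. For these 5 genes the 2 groups overlapped.

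Of the 7 genes that were lower over the 7 times, 6 passed as lower at 2 to 6 h too, and Sel1l read -0.17 there (limma adjusted p = 0.0854). Canx, the membrane-bound lectin chaperone (chr10:35124941-35157954), read -0.01, 0.08 and 0.26 in S-EtOH and -0.75, -0.51 and 0.01 in SCI-EtOH, a difference of -0.56 ± 0.05 (limma adjusted p = 8.17e-11), and a single SCI-EtOH array at 8 h overlapped S-EtOH. Srp9 read 0.10, 0.48 and 0.60 in S-EtOH and -0.81, -0.26 and 0.35 in SCI-EtOH (-0.64 ± 0.10, limma adjusted p = 5.1e-07). Ssr1 (chr17:27039203-27067352) read -0.12, 0.10 and 0.70 in S-EtOH and -0.72, -0.34 and 0.68 in SCI-EtOH (-0.43 ± 0.11, limma adjusted p = 0.0015). Both sets of arrays overlapped for Srp9 and Ssr1. Srp54a read -0.17, 0.02 and 0.29 against -1.30, -0.32 and 0.21 (-0.36 ± 0.08, limma adjusted p = 0.000221). Srp72 had 3 probe sets, which correlated at r = 0.856 to 0.959 over the 60 arrays, and its mean differed by -0.45 ± 0.06 (limma adjusted p = 6.89e-08), with -0.31, -0.37 and -0.68 for the single probe sets.

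Within that mean, direction depended on time. At 2 to 6 h 3 genes were higher and 7 lower, where 35.1% of all genes differed (18.4% higher and 16.7% lower), and the lower ones were Canx (-0.56), Ssr1 (-0.54), Srp72 (-0.52), Srp9 (-0.51), Srp54a (-0.45), Pdia3 (-0.26) and Syvn1 (-0.21). Quantile normalization turned that split to 9 higher and 6 lower, and without the 6 h arrays it was 3 and 4. At 8 h 7 were higher and 1 lower, where 24.4% of all genes differed (11.8% higher and 12.6% lower), led by Sec61g (1.67), Xbp1 (0.86), P4hb (0.82) and Manf (0.81). Without the first S-EtOH rat at 8 h 5 passed, and by the plain test of the study's methods 0, while quantile normalization gave 14. In this paragraph and below, the share of all genes under such an alternative is given only where it was counted. A count without that share cannot be set against all genes. At 12 h 1 was higher (Sec61g, 1.6) and 6 lower, where 31.6% differed (14.3% higher and 17.3% lower), with Srp72 at -0.93, Srp54a at -0.89 and Canx at -0.76. Without the second SCI-EtOH rat at 12 h 3 passed, and by the plain test 2. At 24 and 48 h 20 were higher and 2 lower, where 47.6% of all genes differed (25.4% higher and 22.2% lower). Srp9 (-0.73) and Canx (-0.55) stayed lower, and Sec61g (1.65), Sec61a1 (1.2), P4hb (1.10) and Manf (1.10) led. With quantile normalization 14 passed.

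Methylprednisolone in injured rats was associated with 9 genes higher and 13 lower in SCI-MP than in SCI-EtOH over the 7 times, where 42.1% of all genes differed (10.4% higher and 31.7% lower). This comparison shares SCI-EtOH with the one above. With quantile normalization 12 differed. Higher were Ssr1, Canx, Srp54a, Hsp90b1, Srp72 and 4 more. Ssr1 read -0.37, 0.50 and 1.24 in SCI-MP (0.81 ± 0.11 above SCI-EtOH, limma adjusted p = 9.42e-07), Canx -0.28, -0.03 and 0.22 (0.45 ± 0.05, limma adjusted p = 5.9e-08), and Srp54a -0.36, 0.11 and 0.48 (0.41 ± 0.08, limma adjusted p = 9.92e-05). Srp72 was higher by 0.38 ± 0.06 (limma adjusted p = 5.09e-06). Hsp90b1, the lumenal member of the HSP90 family, read -0.38, -0.20 and 0.41 in SCI-EtOH and -0.16, 0.25 and 0.85 in SCI-MP (0.41 ± 0.07, limma adjusted p = 5.17e-05), beside -0.36, -0.13 and 0.18 in S-EtOH and -0.34, 0.08 and 0.40 in S-MP. Srp14, Srp9, Dnajb9 and Ssr3 were higher by 0.18 to 0.28. No gene of the 33 had SCI-MP and SCI-EtOH arrays that did not overlap, which held for 0.0489% of all genes upward and 0.0698% downward.

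Lower in SCI-MP were Sec61g (-0.44 ± 0.09, limma adjusted p = 0.000286), Syvn1 (-0.42 ± 0.04, limma adjusted p = 1.38e-09), Sec61b (-0.35 ± 0.09, limma adjusted p = 0.0018), Ssr4 (-0.26 ± 0.07, limma adjusted p = 0.00238), Hspa5 (-0.20 ± 0.06, limma adjusted p = 0.0059) and 8 more with differences of -0.23 to -0.15. Syvn1, the ubiquitin ligase of ER-associated degradation (chr1:212766736-212775426), read -0.17, 0.16 and 0.53 in SCI-EtOH and -0.50, -0.30 and -0.03 in SCI-MP, and in sham rats -0.07, 0.20 and 0.37 in S-EtOH and -0.29, -0.05 and 0.10 in S-MP. Both treated groups thus had the lower medians. Sec61b read -0.48, 0.11 and 1.30 in SCI-EtOH and -0.74, -0.26 and 1.24 in SCI-MP, and Ssr4 -0.92, 0.11 and 1.14 against -0.46, -0.26 and 0.92. All 3 overlapped between the treated and untreated injured rats. Over the same times the 6 neutrophil markers and 4 of 5 monocyte and macrophage markers were lower in SCI-MP (medians -0.67 and -0.33), and their part in these differences was not tested.

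At 2 to 6 h 5 genes were higher and 6 lower in SCI-MP, where 26.6% of all genes differed (3.71% higher and 22.9% lower), with Ssr1 at 0.66 and Sec61b at -0.45 as the extremes. Without the first SCI-MP rat at 2 h 6 passed, and with array weights 3, while quantile normalization gave 6 higher and 4 lower and leaving out the 6 h arrays 1 and 7. At 8 h Srp72 was higher (0.60) and Syvn1 and Xbp1 lower (-0.54 each), where 6.65% of all genes differed (2.11% higher and 4.54% lower), and without either SCI-MP rat at 8 h 1 passed, and by the plain test 0. At 24 and 48 h Ssr1 (1.04), Canx (0.46) and Srp14 (0.37) were higher and Syvn1 (-0.62), Sec61a1 (-0.40), Hyou1 (-0.36) and Srp68 (-0.24) lower, where 13.9% differed (3.27% higher and 10.6% lower). That count of 7 was 3 without the first SCI-EtOH rat at 24 h and 4 without the first rat of either SCI-EtOH or SCI-MP at 48 h. It was 12 without either SCI-EtOH rat at 8 h or the second SCI-MP rat at 48 h, 13 without the second SCI-EtOH rat at 48 h and 15 without the first SCI-MP rat at 24 h. With quantile normalization it was 1 and with array weights 3.

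At 12 h the direction was upward for every gene that passed: 8 were higher in SCI-MP and 0 lower, where 16.2% of all genes differed (7% higher and 9.18% lower). Ssr1 read 1.05 and 1.03 in SCI-MP against -0.02 and -0.54 in SCI-EtOH (1.32 ± 0.30, limma adjusted p = 0.00301). Hsp90b1 read 0.41 and 0.59 against -0.38 and -0.30 (0.85 ± 0.20, limma adjusted p = 0.00362), and Dnajc3 0.51 and 0.57 against 0.00019 and -0.25 (0.67 ± 0.19, limma adjusted p = 0.0147). In all 3 both treated rats lay above both untreated ones, as held for 17 of the 33 genes, where it held for 22.2% of all genes. Srp54a (0.95), Srp72 (0.82), Dnajb9 (0.80), Creld2 (0.77) and Canx (0.65) were also higher, and Xbp1 read 0.37 (limma adjusted p = 0.0589). The 8 calls fell to 2 without the second SCI-EtOH rat at 12 h, to 5 and 4 without the first and second SCI-MP rat, and to 1 by the plain test or with quantile normalization.

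Set against the mean of the other 6 times, in a contrast chosen after the data were seen, the difference between SCI-MP and SCI-EtOH at 12 h was larger for Xbp1 (0.62 ± 0.15, limma adjusted p = 0.0126), Dnajc3 (0.77 ± 0.20, limma adjusted p = 0.0262) and Creld2 (0.99 ± 0.30, limma adjusted p = 0.0496), where 3.17% of all genes were. These 3 calls were 0 with quantile normalization, with array weights or without the second rat at 12 h of either SCI-EtOH or SCI-MP, and 1 without the first SCI-MP rat at 12 h. They were 8 without the first SCI-EtOH rat at 6 h or at 12 h, 6 without the first SCI-MP rat at 24 h and 5 without the second SCI-EtOH rat at 48 h. The 12 h difference rests on 4 rats, and single rats decided its count.

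In sham rats 4 of the 33 genes differed with methylprednisolone, a share close to that of all genes. Over the 7 times Sel1l (0.16 ± 0.05, limma adjusted p = 0.0396) and Srp72 (0.18 ± 0.06, limma adjusted p = 0.0477) were higher in S-MP than in S-EtOH and Srp9 (-0.45 ± 0.10, limma adjusted p = 0.00236) and Syvn1 (-0.23 ± 0.04, limma adjusted p = 0.000295) lower, where 9.85% of all genes differed (5.63% higher and 4.22% lower). The 4 calls became 10 with quantile normalization, 8 with array weights and 2 without any of 15 single arrays. These were, in S-EtOH, the first rat at 2 and 48 h, the second at 4, 6, 8 and 12 h and both at 24 h, and, in S-MP, the second at 2 h and the first at each time from 4 h on. Srp9 read -0.32, -0.04 and 0.63 in S-MP against 0.10, 0.48 and 0.60 in S-EtOH. At 2 to 6 h Syvn1 alone was called (-0.30), where 1.17% of all genes were, and it was lost without the second S-EtOH rat at 6 h. At 8 h, 12 h and 24 to 48 h limma called 0 genes, with 4, 1 and 2 at an unadjusted p under 0.05, where 0.691%, 0.559% and 0.154% of all genes were called. With quantile normalization 5, 1 and 2 were called at these times.

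The effect of methylprednisolone differed between injured and sham rats, as SCI-MP minus SCI-EtOH less S-MP minus S-EtOH, for 11 of the 33 genes, where 25.7% of all genes differed (5.45% more positive and 20.2% more negative). It was more positive in injured rats for Ssr1 (0.72 ± 0.16, limma adjusted p = 0.00128), Srp9 (0.71 ± 0.13, limma adjusted p = 0.000232), Srp54a (0.43 ± 0.11, limma adjusted p = 0.00553) and Canx (0.43 ± 0.08, limma adjusted p = 0.000124). It was more negative for Sec61g (-0.60 ± 0.13, limma adjusted p = 0.00101), Pdia4 (-0.36 ± 0.14, limma adjusted p = 0.0479), Hspa5 (-0.33 ± 0.08, limma adjusted p = 0.00289), Manf (-0.27 ± 0.10, limma adjusted p = 0.0367), Srp68 (-0.23), Xbp1 (-0.22) and Syvn1 (-0.19). These 7 of 33 were close to the share of all genes that were more negative. The contrast shares SCI-EtOH and S-EtOH with the injury comparison and is not independent of it. With quantile normalization the value of Syvn1 turned to 0.024. The call of Pdia4 was lost in 46 of the 60 fits that left out 1 array, and that of Manf in 19. For Canx the sham groups read alike, with medians of 0.08 each, while SCI-EtOH lay at -0.51 and SCI-MP at -0.03.

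At 0 h, when no rat given methylprednisolone was taken, several genes stood apart between the pairs of rats without passing the test. In SCI-EtOH at 0 h Canx read -0.38 and -0.36 against 0.08 and 0.10 in S-EtOH (-0.46 ± 0.14, limma adjusted p = 0.18), and Sec61g -0.16 and 0.10 against -0.63 and -0.63 (0.60 ± 0.24, limma adjusted p = 0.311). Srp9 read 0.07 and 0.07 against 0.50 and 0.72, and Ssr1 -0.76 and -0.38 against -0.03 and 0.02. In these 4 genes the pairs did not overlap, as held for 13 of the 33 upward and 9 downward, where it held for 39.6% and 17.5% of all genes. limma called 0 of 33 at 0 h, with 3 at an unadjusted p under 0.05, where 0.0419% of all genes were called. Array weights called 4, a fit of 0 h alone 6 and quantile normalization 1. At 0 h the 4 erythrocyte markers all lay above 0 (median 1.45), each at an unadjusted p under 0.05, and the 8 neuronal markers all below 0 (median -0.29), with 0 of either called in limma, and their part in the values was not tested.

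Taking the 0 h difference out of the injury comparison left 3 calls over the 7 times, all higher: Sec61g (0.84 ± 0.26, limma adjusted p = 0.030), Xbp1 (0.52 ± 0.14, limma adjusted p = 0.013) and P4hb (0.46 ± 0.15, limma adjusted p = 0.036), where 12.4% of all genes were called. The SE grew, since 0 h rests on 4 arrays. The comparisons with methylprednisolone could not be set against their own 0 h level, since no rat given the drug was taken then. The late minus early changes within a group hold no 0 h array and are not touched by a constant offset.

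**Figure D4:**
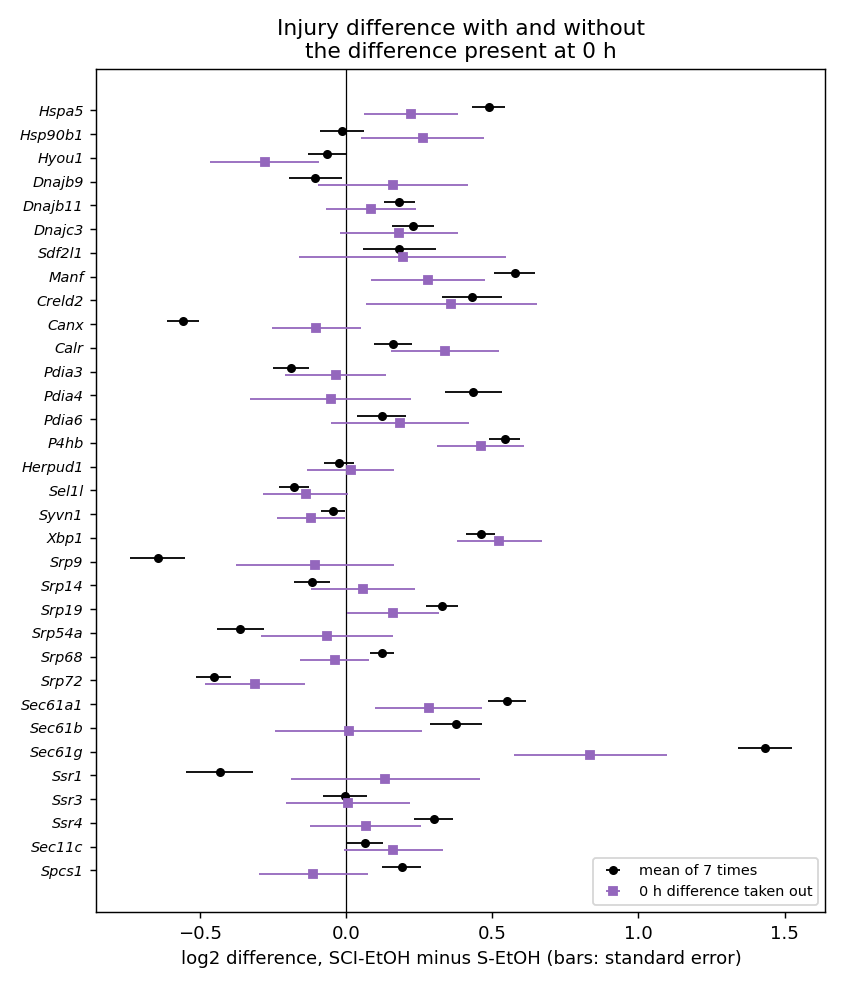
Log2 difference (± SE) over the mean of 7 times for each of the 33 genes, SCI-EtOH minus S-EtOH, with and without the difference at 0 h taken out. Sec61g moves from 1.43 to 0.84 and Ssr1 from -0.43 to 0.13, and the error bars are wider with the 0 h difference taken out.

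Genes were sorted at each time into the 3 classes that the study defined. All 3 require no difference between S-MP and S-EtOH at that time. In SEMP, SCI-MP differs from both SCI-EtOH and S-EtOH, which do not differ from each other. In CPMP, SCI-EtOH differs from both S-EtOH and SCI-MP, which do not differ from each other. In ICMP, both injured groups differ from S-EtOH and not from each other. Here groups that do not differ are those that did not pass the test, which does not show that they are equal. From a moderated F test and Tukey's range, Canx was placed in CPMP at 2, 12, 24 and 48 h, where CPMP held 2.07%, 6%, 4.4% and 2.25% of all genes. Srp54a and Srp72 were in it at 6 and 12 h, Ssr1 and Srp19 at 6 h (2.64% of all genes), Xbp1 at 8 h (5.26%), Hspa5 at 4 h (1.78%) and Ssr4 at 24 h. The 3 of CPMP at 12 h became 5 without the first SCI-EtOH rat at 12 h and 1 by the plain analysis. Sec61g was placed in ICMP at 4, 6 and 12 h (9.45%, 5.01% and 11.6% of all genes) and at 24 and 48 h (19% and 21.9%), and Hspa5 and Manf at 8 h (6.08%). At 24 h ICMP held 5 of the 33 genes, Hspa5, Manf, Creld2, Xbp1 and Sec61g, and at 48 h 11 of the 33 genes: Hspa5, Dnajb11, Dnajc3, Manf, P4hb, Xbp1, Sec61a1, Sec61b, Sec61g, Ssr3 and Ssr4. SEMP held Syvn1 at 8 h (0.845% of all genes) and 48 h (1.83%) and Xbp1 at 12 h (4.83%). These memberships rest on 2 rats per group. The F test was adjusted over all genes and Tukey's p was not, so a class can hold a gene that limma did not call. That held for Xbp1 at 12 h. It also held for Hspa5 at 4 h, when limma called 0 of 33 genes in SCI-MP against SCI-EtOH. At 6 h CPMP held 4 of the 33 genes, while limma called 1 higher and 1 lower in that comparison, so some of these were uncalled too.

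Other genes of the same pathways, taken from lists chosen by function, also rose late. Of 9 measured subunits of oligosaccharyltransferase, which attaches N-glycans as chains enter the lumen, 8 rose in SCI-EtOH and 9 in SCI-MP, with Ostc at 1.07, Stt3a at 1.04 and Rpn2 at 0.90 in SCI-EtOH. Of 8 other translocation genes 6 rose in each, among them Ssr2 (1.04), Sec11a (0.90), Tram1 (0.84) and Srpra (0.56), the receptor of the particle. Of 16 other folding genes 10 rose and 1 fell in SCI-EtOH and 11 rose in SCI-MP, with the oxidase Ero1a at 1.49, Calu at 0.91 and Mogs at 0.87, and Fkbp2 at -0.34. Of 14 other degradation genes 12 rose in SCI-EtOH and 10 in SCI-MP, with the unfoldase Vcp at 0.66 and Edem2 at 0.57. Of 12 stress sensors and regulators 9 rose in SCI-EtOH and 6 in SCI-MP, with Trib3 at 0.87, Ddit3 at 0.80, Creb3 at 0.67, Atf6 at 0.59 and Atf4 at 0.28. In the sham groups 1 gene of these lists rose, among the folding genes in S-MP. Each count stands beside 28.3% of all genes in SCI-EtOH and 28.1% in SCI-MP, 0.538% in S-EtOH and 1.94% in S-MP.

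Over the mean of the 7 times these lists held genes of both directions, where 35.1% of all genes were higher and 27.5% lower with injury, and 10.4% higher and 31.7% lower with methylprednisolone. Between SCI-EtOH and S-EtOH 7 of the 12 stress sensors and regulators were higher and 2 lower, with Ppp1r15a, a phosphatase subunit, at 1.30, Ddit3 at 0.84 and Atf4 at 0.73, and Nfe2l1 at -0.35. In SCI-MP against SCI-EtOH 8 of the 12 were lower and 0 higher. Of the other lists, oligosaccharyltransferase had 3 higher and 3 lower of 9 with injury and 1 higher and 4 lower with methylprednisolone, folding 8 and 3 of 16 and then 3 and 5, degradation 6 and 2 of 14 and then 1 and 6, and translocation 3 and 2 of 8 and then 1 and 1.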

How the data were processed

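RNA of 60 rat spinal cords was measured on Rat Gene 1.0 ST arrays. Per the study's methods, the authors condensed probes to probe sets with RMA and scaled them by chip and by gene with the GeneSpring GX 11 software. The deposited values are on the log2 scale and were used as given. Groups, times and doses came from the sample labels, and all 60 columns matched a rat. The annotation gave 15097 of 27342 probe sets 1 symbol, 323 several and 11922 none, and probe sets of a gene were averaged to 14324 genes. The members and gene lists were chosen with earlier results of these data known, so no list was tested as a set.

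limma 3.58.1 (R 4.3.3) modelled each combination of group and time by its own mean, 30 in all with 30 residual degrees of freedom, with moderated variances and Benjamini-Hochberg adjustment over all genes at 0.05. Classes came from the moderated F test at each time and Tukey's range of 4 means, after the analysis of variance that the methods name. The fit was tested on simulated data. Depth has no counterpart on arrays, whose number limits the precision. The genes named were the 4 largest rises and falls with injury and with methylprednisolone over the 7 times and at most 8, by size, whose effect of methylprednisolone differed between injured and sham rats, with values of the groups that a sentence compares. P4hb, Xbp1, Creld2 and Dnajc3 were described in time after their values were seen. The filter of the methods (CV under 50% in at least 16 of 30 pairs, on the linear scale) kept 27338 of 27342 probe sets, all 15097 with 1 symbol among them, and was an alternative. It removed fewer than the study's own filter, and the scale used there was not stated. Promoters were RefSeq's (GRCr8), searched in Python 3.11.15, and figures were drawn with matplotlib 3.10.9. Other alternatives were quantile normalization, array medians set to 0, array weights, the most variable probe set of a gene, the duplicate number as a block, a fit of the compared times alone, leaving out a time, the plain analysis of the methods, the 0 h difference taken out of the injury comparison and leaving out each array. Leaving out 12 h and the contrasts of late change between groups and of 12 h against other times were chosen after the data were seen. The contrast of late values with 0 h in SCI-EtOH was not planned either.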

Additional observations from a re-analysis of the deposited data

Results flagged for a closer look

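The effect of methylprednisolone over the 7 times differed between injured and sham rats by its own contrast for 11 genes, with differences of 0.72 (Ssr1), 0.71 (Srp9), 0.43 (Srp54a), 0.43 (Canx), -0.19 (Syvn1), -0.22 (Xbp1), -0.23 (Srp68), -0.27 (Manf), -0.33 (Hspa5), -0.36 (Pdia4) and -0.60 (Sec61g). Among all genes 25.7% differed in this contrast, which shares SCI-EtOH and S-EtOH with the injury comparison. The call of Pdia4 was lost in 46 of 60 fits that left out 1 array and that of Manf in 19.

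The late change differed between SCI-EtOH and S-EtOH for 15 genes, by 0.33 (Herpud1), 0.37 (Syvn1), 0.46 (Srp68), 0.57 (Hspa5), 0.63 (Hyou1), 0.65 (Ssr3), 0.67 (Dnajb11), 0.77 (Creld2), 0.81 (Xbp1), 0.82 (Sec61b), 0.86 (Manf), 0.89 (Ssr4), 0.91 (Dnajc3), 0.91 (P4hb) and 1.03 (Sec61a1), and between SCI-MP and S-MP for 16 genes. Among all genes 16.7% and 15.9% had a larger late change in the injured group. Under quantile normalization the counts of the 33 genes were 0 and 3.

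The difference between SCI-MP and SCI-EtOH at 12 h differed from that at the other times for Xbp1 (0.62), Dnajc3 (0.77) and Creld2 (0.99). Among all genes 3.17% had a larger difference at 12 h. With quantile normalization this contrast called none of the named genes.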

How the results depend on the processing

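Values are counts of the 33 genes called unless a gene is named. The share of all genes was counted only for the late changes under quantile normalization and with the 0 h difference taken out. The other counts cannot be set against all genes. Quantile normalization gave 14 for SCI-EtOH against S-EtOH at 8 h, 14 at 24 and 48 h and 1 at 0 h. For SCI-MP against SCI-EtOH it gave 12 over the 7 times, 1 at 12 h and 1 at 24 and 48 h, and for S-MP against S-EtOH 10 over the 7 times (7 higher, 3 lower), 4 at 2 to 6 h (2 and 2), 5 at 8 h, 1 at 12 h and 2 at 24 and 48 h. The late change gave 11 in S-EtOH and 8 in S-MP, where it passed for 15.9% and 15.7% of all genes. Its excess in injured rats gave 0 and 3 where 15 and 16 had been called. The contrast of 12 h against the other times gave 0. Quantile normalization moved the split of SCI-EtOH against S-EtOH at 2 to 6 h to 9 higher and 6 lower. For SCI-MP against SCI-EtOH the splits became 6 and 4 at 2 to 6 h, 1 and 1 at 8 h and 0 and 1 at 24 and 48 h, and the difference between injured and sham rats 4 and 4. Array medians set to 0 gave 2 (0 higher, 2 lower) for S-MP against S-EtOH over the 7 times, 6 and 4 for SCI-MP against SCI-EtOH at 2 to 6 h, and 5 and 4 for the difference. Array weights gave 3 for SCI-MP against SCI-EtOH at 2 to 6 h, 3 at 24 and 48 h and 0 for 12 h against the other times. They gave 8, 5 and 2 for S-MP against S-EtOH over the 7 times, at 8 h and at 24 and 48 h, 4 at 0 h, and 13 and 3 for the late change in S-EtOH and S-MP. A fit of the compared times alone gave 2 for S-MP against S-EtOH over the 7 times and 6 at 0 h, and leaving out 6 h gave 2 for the former. The plain test gave 0 at 8 h and 2 at 12 h for SCI-EtOH against S-EtOH, 0 and 1 for SCI-MP against SCI-EtOH, and 1 for CPMP at 12 h. Leaving out 6 h moved the splits at 2 to 6 h to 3 higher and 4 lower for SCI-EtOH against S-EtOH and to 1 and 7 for SCI-MP against SCI-EtOH. The other counts stayed within 1.5 times under these settings. The cause of the shifts was not tested.

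Without single arrays SCI-EtOH against S-EtOH ranged from 5 to 11 at 8 h and 3 to 8 at 12 h. SCI-MP against SCI-EtOH ranged from 6 to 12 at 2 to 6 h, 1 to 3 at 8 h, 2 to 11 at 12 h and 3 to 15 at 24 and 48 h, and 12 h against the other times from 0 to 8. S-MP against S-EtOH ranged from 2 to 4 over the 7 times and 0 to 1 at 2 to 6 h, the late change in S-MP from 0 to 1 and CPMP at 12 h from 2 to 5. The late rise ranged from 22 to 27 in SCI-EtOH and 21 to 28 in SCI-MP.

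With the 0 h difference taken out 3 genes were called for SCI-EtOH against S-EtOH, and signs turned for Pdia4 (-0.053), Srp68 (-0.039), Ssr1 (0.13) and Spcs1 (-0.11). No MP array exists at 0 h, so the same step in the other comparisons only adds the 0 h difference of the vehicle groups, which gives SCI-MP rats a sham level that was not measured and moves each value by the 0 h difference by construction. It says nothing about the stability of these comparisons. It gave 0 calls for SCI-MP against SCI-EtOH and 0 for the difference between injured and sham rats, and turned signs in the former for Hspa5 (0.071), Dnajb9 (-0.023), Manf (0.11), Canx (-0.0030), Srp9 (-0.27), Srp68 (0.013), Sec61a1 (0.043), Sec61b (0.014), Sec61g (0.16) and Spcs1 (0.092), and in the latter for Manf (0.022), Canx (-0.029) and Pdia4 (0.13). Quantile normalization turned Syvn1 in the latter (0.024).

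The labels do not say what rats of the same duplicate number share. Of 43 pairs across groups 11 deviated together at a correlation over 0.1, with a range of -0.57 to 0.43. With the number as a block 23 genes were called for SCI-EtOH against S-EtOH over the 7 times, 21 for SCI-MP against SCI-EtOH, 3 for S-MP against S-EtOH and 28 for the late change in SCI-MP. Of 60 results of single genes 58 kept their call and 2 lost it under the block. Under quantile normalization 46 kept it, 13 lost it and 1 turned. It was lost by 10 with array weights, 8 with array medians set to 0, 4 in a fit of the compared times alone, 5 without the 6 h arrays, 1 with the most variable probe set, 0 with the CV filter and 8 without the 12 h arrays, chosen after the data were seen. Among single-array omissions, the call of Pdia4 for the difference between injured and sham rats was lost in 46 of 60, that of Ssr3 for SCI-MP against SCI-EtOH over the 7 times in 47 and that of Srp72 for S-MP against S-EtOH in 33.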
